A study of Mus musculus with 2 samples.

Results

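Colitis-associated colorectal cancers (CACs) were profiled by droplet single-cell RNA sequencing (scRNA-Seq), and 6153 of the 21479 cells annotated as epithelial carried at least 25% of their mRNA counts on the 13 protein-coding genes of the mitochondrial genome. These 6153 epithelial cells with a high mitochondrial share were chosen by that measured value, so the high level of mitochondrial mRNA described a selection and was no finding. The other 15326 epithelial cells, under 25%, served for comparison within each library and are called lower cells. The whole data set held 38883 cells of 11 annotated types, and 6600 of them, of any type, reached the same share.

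Each library pooled 6 to 8 CACs from 3 female mice of 1 genotype. All mice carried *Mir34a* alleles flanked by loxP sites, and the library labelled Mir34a_F/F came from mice with these alleles alone. The library labelled Mir34a_Mye_KO came from mice that also carried *LysM-Cre*, a Cre recombinase driven by the lysozyme promoter of myeloid cells, so that the floxed gene was to be lost from macrophages and neutrophils and not from the epithelium. CACs of both genotypes were induced in mice aged 6 to 10 weeks with the carcinogen azoxymethane (AOM, 10 mg/kg) and 3 cycles of dextran sodium sulfate (DSS), which injures the colon epithelium, at 2.5% in the first cycles and 2% in the last, and tumors were taken on day 110. A difference between the libraries can therefore not be told apart from a difference between pools of mice, dissociations or sequencing runs, and no test between genotypes was possible. Cells of 1 library are not replicates. The 95% intervals given below are exact and cover counting error only.

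The libraries held 147109016 and 193133086 unique molecular identifiers (UMIs, each standing for 1 captured mRNA molecule) in 20312 and 18571 cells, in the order Mir34a_F/F and Mir34a_Mye_KO that is kept throughout. The high epithelial cells contributed 5526626 and 21040644 nuclear-encoded UMIs. Among all cells, 96 barcode sequences occurred in both libraries, and 22 of the cells with such a barcode were high epithelial cells. The features of the targeted gene went against the labels in macrophages, each in the opposite direction to the genotypes named. The feature for the primary *Mir34a* transcript gave 7.07 (95% interval 5.92 to 8.38) and 14.7 (13.4 to 16.1) UMIs per 1000000 nuclear UMIs in the macrophages of the libraries labelled Mir34a_F/F and Mir34a_Mye_KO, and the feature for the Cre cassette gave 23.99 (21.8 to 26.3) and 5.47 (4.68 to 6.35). In neutrophils the intervals of the libraries overlapped for both features, with 1.70 (0.775 to 3.22) and 1.35 (0.699 to 2.36) for the primary transcript and 3.01 (1.72 to 4.90) and 1.13 (0.540 to 2.07) for the Cre cassette. Which sequence each feature counts is not given in the sources used here. In the high epithelial cells the primary transcript stood at 2.53 (1.38 to 4.25; 14 UMIs) and 2.76 (2.09 to 3.56; 58 UMIs) on the same scale. The libraries are therefore called by their labels, and this holds for every difference given between them.

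The mitochondrial genome encodes subunits of the respiratory chain complexes I, III and IV and of the ATP synthase (complex V), while the remaining subunits, the mitochondrial ribosomal proteins and the factors that read mitochondrial mRNA are encoded in the nucleus and imported. Mitochondrial mRNAs are cut from long transcripts of the circular genome, and most receive short poly(A) tails, which lets oligo(dT)-primed libraries capture them. Colonic epithelium is rich in mitochondria, and differentiated absorptive colonocytes contain more of them than crypt base stem cells. In scRNA-Seq a high mitochondrial share is commonly used as a filter against damaged cells.

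The 3′ ends of the annotated coding regions on chromosome M of mm10 are shown because the assay primes from the poly(A) tail, which lies at or downstream of them. Capitals mark the stop codon or the part of it that the genome encodes. Of the 13 genes, 10 ended in a whole stop codon and 3 (*mt-Co3*, *mt-Nd4* and *mt-Cytb*) in a lone T that polyadenylation completes to TAA. Sequences are from the RNA strand, 5′ to 3′, each 30 bases long.
mt-Co1, chrM:6843-6872: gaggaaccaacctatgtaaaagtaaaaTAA
mt-Nd5, chrM:13536-13565: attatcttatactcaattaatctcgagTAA
mt-Nd2, chrM:4922-4951: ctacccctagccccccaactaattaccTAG
mt-Atp6, chrM:8578-8607: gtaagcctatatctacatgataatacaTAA
mt-Co3, chrM:9361-9390: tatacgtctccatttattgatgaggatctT
mt-Cytb, chrM:15259-15288: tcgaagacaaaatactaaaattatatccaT

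High cells made up 2328 of 11614 epithelial cells (20.04%, interval 19.3 to 20.8) in the library labelled Mir34a_F/F and 3825 of 9865 (38.8%, 37.8 to 39.7) in the library labelled Mir34a_Mye_KO. Their own median mitochondrial share was 38.6% (quartiles 30.01 and 47.7) and 41.8% (31.9 and 53.5), against 7.90% and 7.24% in the lower cells. No cell exceeded 69.94%, although the last bin, from 68%, still held 14 and 86 epithelial cells. Whether cells above this value were removed before deposit is not stated in the study's methods and was not tested. At or above 40% lay 1072 (46.0%) and 2054 (53.7%) of the high cells. Cells this rich in mitochondrial mRNA were mainly epithelial, with 94.3% of the 2470 and 92.6% of the 4130 cells of any type that reached 25%. Outside the epithelium the share of high cells was 1.63% (1.38 to 1.92) and 3.50% (3.13 to 3.91), and no other type exceeded 5.26% in the library labelled Mir34a_F/F or 16.7% in the library labelled Mir34a_Mye_KO.

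The threshold cut through a continuous range. The library labelled Mir34a_F/F held 125 epithelial cells between 24 and 25% and 123 between 25 and 26%, and the library labelled Mir34a_Mye_KO held 150 and 162. The highest lower cells stood at 24.9954% and 24.9951% and the lowest high cells at 25% and 25.0053%. Cells just outside and just inside had median nuclear UMI counts of 3920 and 3876 in the first library and of 9839 and 9272.5 in the second, so that no gap marked the boundary.

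**Figure D1:**
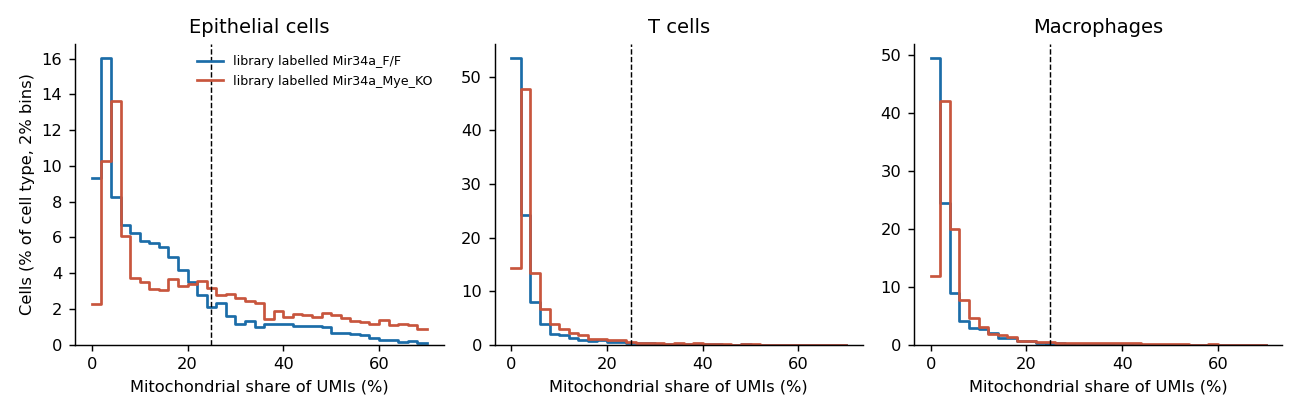
Histograms of the mitochondrial share of UMIs (x axis, percent, bins of 2%) for epithelial cells, T cells and macrophages, 1 line per library, with the percent of the cells of that type on the y axis (scaled per panel) and the 25% threshold as a dashed line. The epithelial distributions run through 25% without a gap and reach 69.9%, with 20.04% and 38.8% of cells in the libraries labelled Mir34a_F/F and Mir34a_Mye_KO at or above the line, while T cells and macrophages have few cells there (51 and 71, 30 and 90).

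The epithelial annotation, which the study based on cell-type-specific markers, was set beside defining markers. After each cell was thinned to 500 nuclear UMIs, a UMI of *Epcam*, the epithelial adhesion molecule, was found in 49.2% (47.1 to 51.2) of high and 53.4% (52.4 to 54.5) of lower cells of the library labelled Mir34a_F/F, against 19.6% (18.2 to 21.1) of its T cells. These shares were 47.7% (46.1 to 49.3), 47.5% (46.2 to 48.8) and 12.9% (11.7 to 14.3) in the library labelled Mir34a_Mye_KO. High cells thus held *Epcam* above T cells as a whole, a cell type that should lack it. Only 51 and 71 of these T cells were high cells. In them the listed genes of epithelial identity summed to a level above that of lower T cells, by log2 0.80 and 1.06. A background matched for the mitochondrial share was not measured. Thinning left out 1 and 3 of the high cells as too shallow. Without thinning the *Epcam* shares were 79.9% in high cells, 93.9% in lower cells and 67.7% in T cells of the library labelled Mir34a_F/F, and 89.6%, 88.4% and 77.3% in the library labelled Mir34a_Mye_KO, at median depths of 1446.5, 5668 and 3439 and of 3714, 5806.5 and 7681 nuclear UMIs. *Krt8*, a keratin of simple epithelia, was found after thinning in 76.4% and 59.9% of high cells and in 38.7% and 21.9% of T cells. Against lower cells at 10 to 25% the log2 ratio of the level was -0.25 and -0.19 for *Epcam* and -0.16 and -0.25 for *Krt8*. Summed over the 19 listed genes of epithelial identity, the log2 ratio of the level in high over lower cells was 0.03 (0.02 to 0.04) and 0.05 (0.04 to 0.05).

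The UMI counts behind the share were compared with those of the lower cells. In the library labelled Mir34a_F/F the median high cell held 1446.5 nuclear and 1055 mitochondrial UMIs against 5668 and 584 in the median lower cell, so that nuclear mRNA was 0.255 times and mitochondrial mRNA 1.81 times that of lower cells. In the library labelled Mir34a_Mye_KO the median high cell held 3714 nuclear and 2877 mitochondrial UMIs against 5806.5 and 487, that is 0.640 times and 5.91 times. Lower cells at 10 to 25% alone had medians of 4871.5 nuclear and 942 mitochondrial UMIs in the first library and 9647 and 2051.5 in the second. Against these, too, high cells of both libraries held fewer nuclear and more mitochondrial UMIs. The direction was thus that seen against all lower cells, while the sizes of the differences depended on the lower cells chosen. The median number of nuclear genes detected was 947 against 2512.5 and 1786 against 2479.5. At an equal 500 nuclear UMIs per cell it was 382 against 385 and 351 against 361. Both UMI counts are parts of the share that chose the cells, and a lower count cannot be told apart from a smaller cell or a poorer capture.

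Along the mitochondrial share the nuclear UMI count did not change evenly. In the library labelled Mir34a_F/F the median was 7166.5 under 5%, 7244 at 5 to 10%, 4871.5 at 10 to 25%, 2643.5 at 25 to 40% and 953.5 at 40% and more. It was 2209, 3169, 9647, 7167 and 1962 in the library labelled Mir34a_Mye_KO, where the peak lay in the middle of the range. Median mitochondrial UMIs went from 174 over 590.5, 942 and 1161.5 to 990.5 in the first library and from 75 over 230, 2051.5 and 3233 to 2617 in the second. Because many lower cells of the library labelled Mir34a_Mye_KO were shallow, the sign of its nuclear ratio depended on the comparison group: against lower cells under 10% alone the log2 ratio of the medians was 0.55, against -0.64 for all lower cells.

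**Figure D2:**
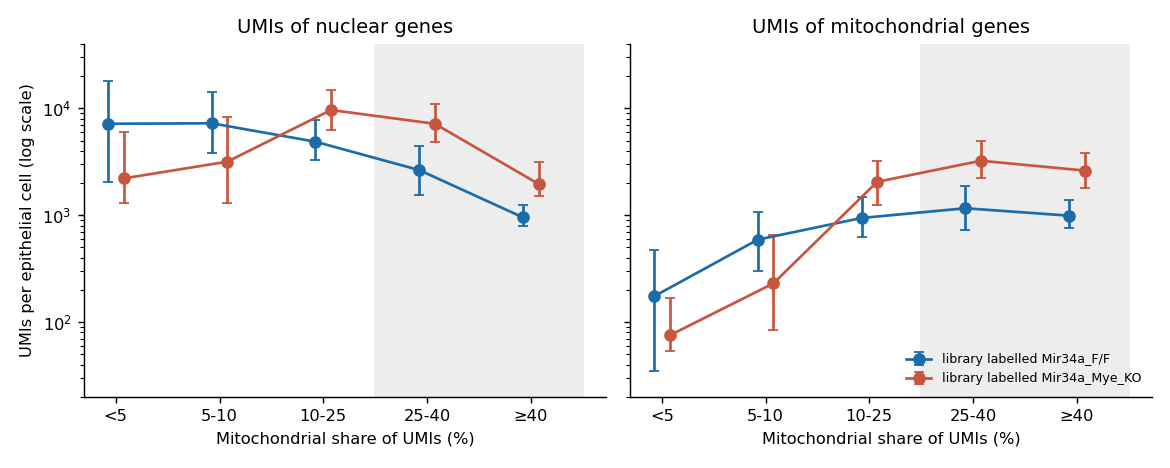
Median UMIs per epithelial cell (y axis, log scale) in 5 bins of the mitochondrial share (x axis, percent), with nuclear mRNA in the left and mitochondrial mRNA in the right panel, 1 line per library, the high cells shaded and bars from the lower to the upper quartile over cells. Nuclear medians run from 7166.5 to 953.5 in the library labelled Mir34a_F/F and peak at 9647 in the 10 to 25% bin of the library labelled Mir34a_Mye_KO, and mitochondrial medians are highest at 25 to 40%, with 1161.5 and 3233.

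All 13 mitochondrial mRNAs were higher per 10000 UMIs in high than in lower cells, by log2 2.00 to 2.28 and 1.31 to 1.64, which is what the rule selected. The rule did not fix the proportions among them. These were nearly those of lower cells. *mt-Co1*, the catalytic subunit of complex IV, was the largest component with 24.7% of mitochondrial UMIs in high and 25.04% in lower cells of the library labelled Mir34a_F/F, and with 20.5% and 20.9% in the library labelled Mir34a_Mye_KO. *mt-Co3* made up 19.996% against 19.3% and 18.2% against 17.9%, and *mt-Atp6*, of the ATP synthase, 15.2% against 14.7% and 19.0% against 18.8%. Of the complex I mRNAs, *mt-Nd4* made up 6.41% and 6.74% in high cells, *mt-Nd1* 4.86% against 5.36% and 4.74% against 4.91%, and *mt-Nd5* 1.66% against 1.54% and 1.57% against 1.65%. *mt-Cytb*, the mitochondrially encoded subunit of complex III, made up 9.35% against 10.1% and 9.26% against 9.39%. The largest log2 ratio of a share, in either direction, was 0.15 in the first library (*mt-Atp8*) and 0.27 in the second (*mt-Nd6*, lower in high cells and the least abundant mRNA, with 7209 and 18543 UMIs).

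The largest differences in composition lay between the libraries. Among high cells, the log2 ratio of the library labelled Mir34a_Mye_KO over the library labelled Mir34a_F/F was 0.46 for the share of *mt-Nd2*, 0.32 for *mt-Atp6*, -0.26 for *mt-Co1*, -0.43 for *mt-Nd4l* and -0.72 for *mt-Nd6*. These 5 ratios had the same sign in lower epithelial cells, T cells and macrophages. For *mt-Nd2* the ratio was 0.51 in lower epithelial cells, 0.53 in T cells and 0.55 in macrophages, and for *mt-Co1* -0.26, -0.28 and -0.30, close to those of high cells. For *mt-Nd6* it was smaller in size there, at -0.43, -0.54 and -0.65. The small ratios of *mt-Nd5* and *mt-Atp8* changed sign, from -0.08 and -0.07 in high to 0.10 and 0.09 in lower epithelial cells.

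**Figure D3:**
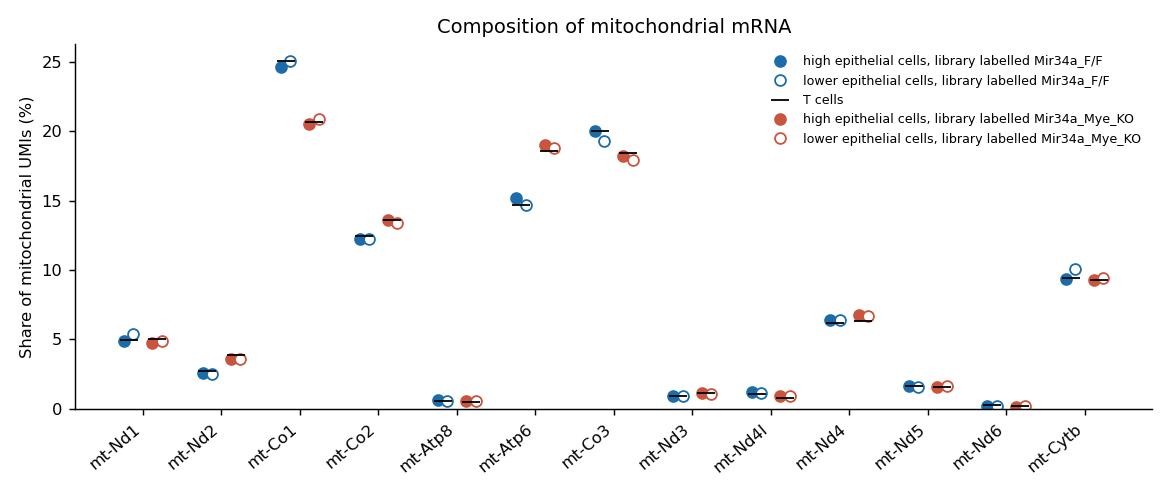
Share of mitochondrial UMIs (y axis, percent) taken by each of the 13 mitochondrial mRNAs (x axis, in genome order) in high epithelial cells (filled circles), lower epithelial cells (open circles) and T cells (dashes) of each library. High and lower cells of 1 library nearly coincide, while the libraries differ, as for *mt-Co1* with 24.7% and 20.5% in high cells.

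Nuclear genes were compared as UMIs per 10000 nuclear UMIs summed over cells, so that the mitochondrial counts themselves did not enter the level. A ratio of at least 1.5-fold was counted among genes with a level of at least 0.2 over the epithelial cells of the library. In the library labelled Mir34a_F/F 424 of 7145 such genes were higher (5.93%) and 561 lower (7.85%) in high cells. Of 7109 such genes in the library labelled Mir34a_Mye_KO, 37 were higher (0.52%) and 228 lower (3.21%). Of the 6814 genes measured in both, 26 were higher in both libraries (0.382%) and 168 lower in both (2.47%). The median log2 ratio of these 6814 genes was -0.01 and -0.07. With each cell weighted equally instead, 100 genes were higher and 112 lower in the library labelled Mir34a_F/F, and 19 and 91 in the library labelled Mir34a_Mye_KO. The nuclear levels and the share that chose the cells come from the same cells, so these ratios are descriptions of the cells selected.

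Nuclear genes for the respiratory chain were not higher along with the mitochondrial ones. None of the 36 measured complex I subunits was 1.5-fold higher in either library, 11 were lower in the library labelled Mir34a_F/F and 0 in the library labelled Mir34a_Mye_KO, beside 7.85% and 3.21% of all genes lower and 5.93% and 0.52% higher. Their median log2 ratio was -0.35 and -0.12. The 10 complex IV subunits, partners of the *mt-Co* products, had medians of -0.57 and -0.13, with 5 and 0 lower beside the same 7.85% and 3.21% of all genes. Complexes II and III (13 genes) had medians of -0.24 and -0.08, and complex V (16 genes) of -0.39 and -0.19, with 4 and 0 lower. *Cox8a* stood at 6.51 in high against 10.6 in lower cells (log2 ratio -0.70, -0.75 to -0.65) and at 5.58 against 6.38 (-0.19, -0.22 to -0.16). *Cox4i1* stood at 8.76 against 10.6 (-0.27, -0.31 to -0.23) and at 7.21 against 7.26 (-0.01, -0.04 to 0.02). In cells of 1000 to 5000 nuclear UMIs of the library labelled Mir34a_F/F the log2 ratio turned to 0.048 for *Cox8a*, 0.026 for *Cox6c* and 0.073 for *Uqcrh*, so the depth of the cells moved with these values, and its part was not tested. Against lower cells at 10 to 25% the ratios were -0.11 and -0.08 for *Cox8a* and -0.05 and 0.05 for *Cox4i1*. *Ndufa13*, of complex I, differed from these with 3.48 against 3.37 and 4.03 against 3.44.

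The 39 measured mitochondrial ribosomal protein genes had medians of -0.42 and -0.20, beside -0.01 and -0.07 for all 6814 genes, and 36 of 39 were below 0 in each library. At least 1.5-fold lower were 8 and 0 of them, beside 7.85% and 3.21% of all genes. Factors of mitochondrial DNA maintenance and transcript handling (7 measured of 21 listed) had medians of -0.02 and -0.23. No member was past 1.5-fold in both libraries, beside 0.382% of all genes higher and 2.47% lower. Regulators of mitochondrial biogenesis did not share a direction. *Ppargc1b*, a coactivator of mitochondrial genes, stood at 0.517 against 0.236 (log2 ratio 1.13, 0.95 to 1.31) and at 0.574 against 0.367 (0.64, 0.54 to 0.75). Its relative *Ppargc1a* stood at 0.593 against 1.03 (-0.80, -0.96 to -0.64) and at 0.524 against 0.685 (-0.38, -0.48 to -0.29). Against lower cells at 10 to 25% the log2 ratio of *Ppargc1a* was -0.11 (-0.29 to 0.06) and -0.15 (-0.26 to -0.04). That of *Ppargc1b* was 0.42 and 0.36. *Esrra*, a nuclear receptor that both coactivators bind, stood at 1.05 against 0.656 (0.67, 0.55 to 0.80) and at 0.800 against 0.612 (0.39, 0.30 to 0.47). Fatty acid oxidation and citrate cycle genes (17) had medians of -0.20 and -0.10, and dynamics and mitophagy genes (12) of -0.02 and -0.07.

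Genes of stress and cell death included members in both directions. Mitochondrial and integrated stress response genes (10 measured) had medians of 0.08 and -0.03, p53 targets (8) of -0.06 and -0.17 and genes of apoptosis and lytic death (14) of 0.17 and 0.01, with members from -0.63 to 0.86 and from -0.62 to 0.54. *Gsdmd*, which encodes the pore-forming gasdermin D of pyroptosis, stood at 2.78 against 1.53 (log2 ratio 0.86, 0.78 to 0.93) and at 2.57 against 1.76 (0.54, 0.49 to 0.59). Against lower cells at 10 to 25% its log2 ratio was 0.06 (-0.02 to 0.14) and 0.14 (0.09 to 0.19). Immediate-early genes (15) had medians of 0.21 and 0.17 and no member past 1.5-fold in either library, beside 5.93% and 0.52% of all genes higher and 7.85% and 3.21% lower, with *Jun* at 21.6 against 16.6 and 22.8 against 19.6. Heat shock genes (10) had medians of -0.19 and -0.12. *Hspb1*, a small heat shock protein, was the 1 member of 10 lower in both, beside 2.47% of all genes. It stood at 1.16 against 2.47 (-1.10, -1.21 to -0.98) and at 0.650 against 1.08 (-0.73, -0.82 to -0.65). In cells of 1000 to 5000 nuclear UMIs of the library labelled Mir34a_F/F, however, its log2 ratio was 0.0061. Interferon-stimulated genes (11) had medians of 0.34 and 0.02, and *Irf7*, a transcription factor of the interferon response, stood at 1.46 against 0.818 (0.84, 0.73 to 0.94) and at 1.45 against 1.08 (0.42, 0.35 to 0.48). Past 1.5-fold were 1 higher member in the first library and 1 lower member in the second, beside 5.93% and 3.21% of all genes. Against lower cells at 10 to 25% *Irf7* was at 0.002 (-0.11 to 0.11) and -0.01 (-0.08 to 0.06). *Isg15* (-0.21 and -0.36), *Ifit1bl1* (-0.41 and -0.45) and *Zbp1* (-0.16 and -0.08) were below 0 there. Glycolysis and hypoxia genes (17) had medians of 0.16 and 0.06, and *Hk2*, hexokinase 2, which binds the outer mitochondrial membrane, stood at 8.01 against 5.20 (0.62, 0.58 to 0.67) and at 7.98 against 5.51 (0.53, 0.50 to 0.56). The 17 antioxidant enzymes had medians of 0.02 and 0.03.

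Cytosolic ribosomal protein mRNAs were the largest gene group with a lower level. Of 75 measured genes, 74 were below 0 in each library, with medians of -0.61 and -0.37, beside -0.01 and -0.07 for all 6814 genes. At least 1.5-fold lower were 47 and 3, beside 7.85% and 3.21% of all genes. Their summed level was 918 against 1375 per 10000 nuclear UMIs (log2 ratio -0.58, -0.59 to -0.58) and 759 against 957 (-0.33, -0.34 to -0.33). *Rpl10* was the member with the largest difference, at 3.96 against 12.5 (-1.66, -1.72 to -1.60) and at 3.28 against 5.58 (-0.77, -0.80 to -0.73). *Rps2* and *Rpl36a* were the other members past 1.5-fold in both libraries, so 3 of 75 were lower in both, beside 2.47% of all genes. Genes of this family have many processed pseudogenes that can share reads, so single members are uncertain. In cells of 1000 to 5000 nuclear UMIs the log2 ratio of the sum was -0.10 and -0.46. The depth of the cells therefore moved with this result in the library labelled Mir34a_F/F, and its part was not tested. Other abundant cytosolic mRNAs (17 genes) had medians of -0.35 and -0.18 and mRNAs of endoplasmic reticulum proteins (17) of -0.28 and -0.18. *Malat1*, a long RNA that stays in the nucleus, stood at 537 against 396 (0.44, 0.43 to 0.44) and at 568 against 520 (0.13, 0.12 to 0.13), but this direction turned to -0.28 and -0.02 with each cell weighted equally and to -0.11 in each library against lower cells at 10 to 25%.

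**Figure D4:**
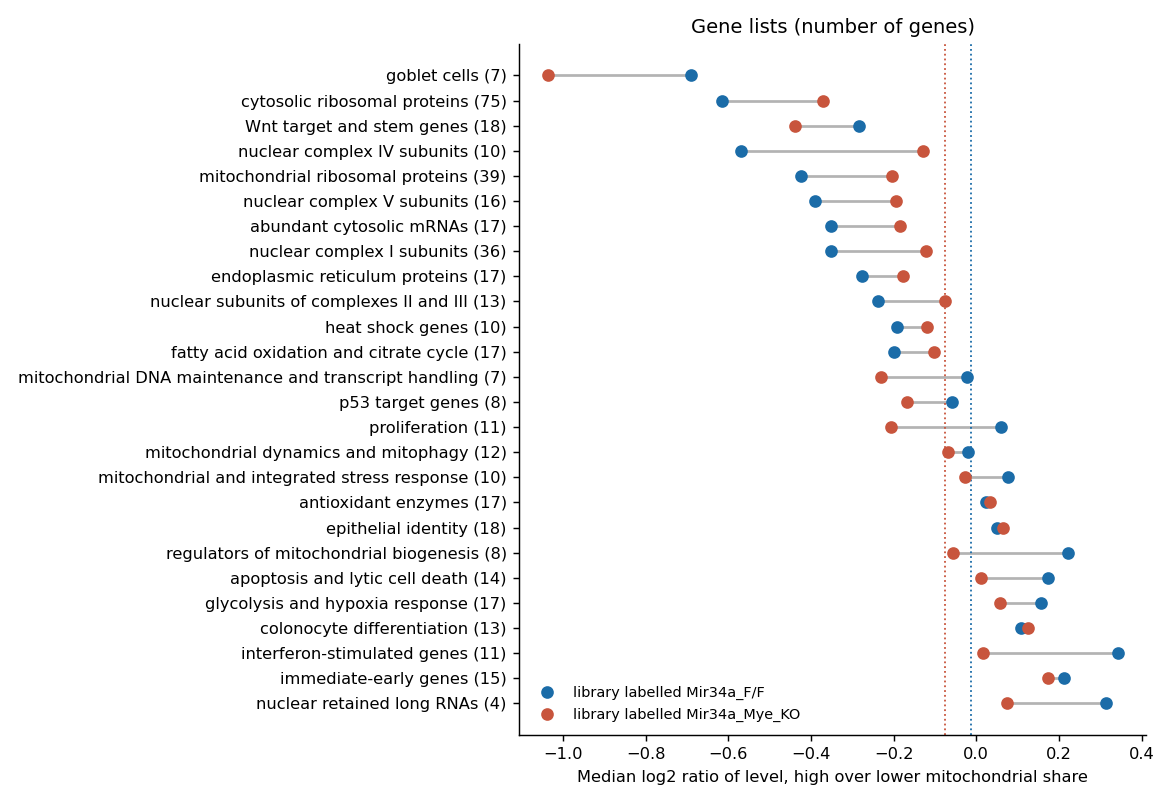
Median log2 ratio of the level in high over lower epithelial cells (x axis) for each pathway or epithelial gene list of at least 4 measured genes (y axis, with that number), markers of other cell types not plotted, 1 point per library joined by a line, with the median of all 6814 genes measured in both as a dotted line per library. Goblet cell genes lie farthest to the left in both libraries, at -0.69 and -1.04, followed by the ribosomal protein genes (-0.61) in the library labelled Mir34a_F/F and the Wnt target and stem genes (-0.44) in the library labelled Mir34a_Mye_KO, and the rightmost points are the interferon-stimulated genes (0.34) in the library labelled Mir34a_F/F and the immediate-early genes (0.17) in the library labelled Mir34a_Mye_KO.

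Among epithelial programs, the lists of goblet cell genes and of Wnt target and stem genes had medians below 0 in both libraries. Goblet cell genes (7 measured) had medians of -0.69 and -1.04, and 3 of 7 were past 1.5-fold lower in both libraries, beside 2.47% of all genes. *Spink4* stood at 7.49 against 17.2 (-1.20, -1.25 to -1.16) and at 5.15 against 11.5, and *Tff3*, the trefoil factor of mucus, at 3.11 against 5.03 (-0.69, -0.76 to -0.62) and at 2.96 against 7.34. *Muc2*, the mucin that goblet cells secrete, stood at 2.91 against 3.12 and at 2.84 against 4.83 and was not past 1.5-fold in the library labelled Mir34a_F/F. After thinning, a *Muc2* UMI was found in 11.7% (10.5 to 13.1) of high and 7.31% (6.79 to 7.86) of lower cells of the library labelled Mir34a_F/F, with 4.99% in T cells, and in 11.8% (10.8 to 12.8) and 10.98% (10.2 to 11.8) of the library labelled Mir34a_Mye_KO, with 4.87% in T cells. The share of cells, which weights each cell equally, was thus not lower for *Muc2*, and in the second library the intervals overlapped. For *Spink4* and *Tff3* the log2 ratio of the thinned share was above 0 in the library labelled Mir34a_F/F, at 0.73 and 0.52, against the direction of the summed level.

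Wnt target and stem genes (18 measured) had medians of -0.28 and -0.44, with 2 of 18 past 1.5-fold lower in both libraries, as were 2.47% of all genes. *Lgr5*, the receptor that marks intestinal stem cells, stood at 0.320 against 0.731 (-1.19, -1.41 to -0.97) and at 0.336 against 0.896 (-1.42, -1.53 to -1.30). After thinning, a *Lgr5* UMI was found in 1.80% against 3.31% and in 2.33% against 3.74% of cells, with 0.680% and 0.831% in T cells. *Prox1*, a transcription factor of colon tumor cells, stood at 1.16 against 2.07 and at 1.03 against 2.03. Against lower cells at 10 to 25% its log2 ratio was -0.06 (-0.18 to 0.06) and -0.42 (-0.50 to -0.34). Proliferation genes (11) had medians of 0.06 and -0.21, and *Mki67* was found after thinning in 4.86% of both high and lower cells of the first library and in 4.19% against 4.37% of the second.

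Genes of absorptive colonocytes (13 measured) had medians of 0.11 and 0.13. *Ceacam20*, an adhesion molecule of the microvillus surface, was the 1 member of 13 higher in both libraries, beside 0.382% of all genes, at 3.03 against 1.56 (0.96, 0.89 to 1.04) and at 3.67 against 2.22 (0.73). Within single libraries 2 members were higher in the library labelled Mir34a_F/F, beside 5.93% of all genes. In the library labelled Mir34a_Mye_KO 1 was higher and 1 lower, beside 0.52% and 3.21% of all genes. *Krt20*, a keratin of differentiated colonocytes looked up after the values were seen, stood at 1.92 against 1.71 and at 2.40 against 2.14, and was found after thinning in 8.21% against 7.62% and in 8.45% against 6.94% of cells. Against lower cells at 10 to 25% its log2 ratio turned to -0.34 (-0.44 to -0.25) and -0.20 (-0.25 to -0.15). The colonocyte genes *Lypd8* (-0.43 and -0.37), *Clca4b* (-0.40 and -0.25) and *Ceacam1* (-0.29 and -0.39) were also below 0 in that comparison. Of the listed enteroendocrine and tuft cell genes only 1 each was measured in both libraries.

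The nuclear genes with the largest lower level in both libraries included 5 defensins, antimicrobial peptides of Paneth cells. *Defa24* stood at 3.52 against 17.5 and at 3.10 against 9.38, and *Defa21* at 0.181 against 2.85 and at 0.161 against 1.59. These genes are near-identical copies that share reads, so members are uncertain. The level did not fall evenly with the mitochondrial share: *Defa24* stood at 32.7 and 23.4 under 5%, at 7.27 and 12.3 at 5 to 10%, at 2.60 and 3.25 at 10 to 25%, at 2.78 and 2.30 at 25 to 40% and again higher, at 6.02 and 5.15, at 40% and more. Against lower cells at 10 to 25% alone *Defa24* had log2 ratios of 0.44 and -0.07, and the direction turned in both libraries for *Defa21* (0.76 and 0.61) and *Defa22* (0.48 and 0.34). As the thinned share of cells it turned in both for *Defa24* (0.80 and 0.12), *Defa21* (0.74 and 0.086) and *Defa22* (0.73 and 0.10). The metallothioneins *Mt3* and *Mt4* were also highest in cells under 5%, with *Mt3* at 2.77 against 8.44 (-1.61, -1.68 to -1.53) and at 1.62 against 4.89 (-1.60, -1.65 to -1.55). Others were *Ptn*, a heparin-binding growth factor, *Mdga2* and *Pcdh7*, of cell adhesion, *Itln1*, an intelectin of secretory cells, and *Pnliprp2*, a lipase-related protein, with log2 ratios from -1.85 to -1.34 in the library labelled Mir34a_F/F and from -2.06 to -1.36 in the library labelled Mir34a_Mye_KO. Of these, *Itln1* (0.077) turned above 0 in the library labelled Mir34a_F/F against lower cells at 10 to 25%, as did *Mt4* (0.12). In that comparison *Ptn* was at -0.06 and -0.52, *Pcdh7* at -0.05 and -0.80, *Pnliprp2* at -0.05 and -0.49 and *Mdga2* at -0.25 and -0.88. For *Ptn*, *Pcdh7* and *Pnliprp2* the interval spanned 0 in the library labelled Mir34a_F/F.

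*Taco1* led the nuclear genes that were higher in both libraries. It encodes the translational activator of *mt-Co1* and lies at chr11:106066061-106073612 (mm10, plus strand). *Taco1* stood at 4.97 against 1.31 (log2 ratio 1.92, 1.86 to 1.98) and at 4.93 against 2.31 (1.09, 1.05 to 1.13) per 10000 nuclear UMIs. After thinning, a UMI was found in 20.9% against 8.73% and in 22.3% against 9.47% of cells, with 3.82% and 4.19% in T cells. *Lars2*, the mitochondrial leucyl-tRNA synthetase (chr9:123366927-123462666, plus strand), stood at 16.6 against 6.03 (1.46, 1.43 to 1.49) and at 33.2 against 21.2 (0.64, 0.63 to 0.66). High cells thus combined a higher level of these transcripts for mitochondrial translation with a lower level of mitochondrial ribosomal protein mRNAs.

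The other genes named by rule among those higher in both libraries included *Ceacam20*, *Cyp2d34*, a cytochrome P450 gene, and *Rdh16*, a retinol dehydrogenase gene. Also named were *Myo15b*, a myosin-like gene, *Sema4g*, a semaphorin, *Clec2d*, a lectin-like receptor, and *Hist1h4n*, a histone H4 gene. The rest were the noncoding or uncharacterized *Gm15564*, *4732471J01Rik* and *Hoxa11os*. The log2 ratios of all these other genes ran from 0.65 to 1.35 and from 0.62 to 0.73. *Hist1h4n* turned to -0.28 in cells of 1000 to 5000 nuclear UMIs of the library labelled Mir34a_F/F, and *Cyp2d34* (-0.045) and *Rdh16* (-0.15) turned below 0 there against lower cells at 10 to 25%. Among abundant features looked up after the values were seen, *Gm42418*, which overlaps a ribosomal RNA gene on chromosome 17, stood at 697 against 290 (1.27, 1.26 to 1.27) and at 1085 against 726 (0.58). *Cmss1* stood at 31.7 against 10.7 (1.56, 1.54 to 1.58) and at 43.0 against 28.1 (0.61, 0.60 to 0.63). *Gm26917*, which was higher in the library labelled Mir34a_F/F (1.10), was at -0.03 in the library labelled Mir34a_Mye_KO.

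Reads of mitochondrial mRNA could be assigned to nuclear copies of mitochondrial DNA, so the annotated transcripts were compared with all annotated genes of the mitochondrial genome, its ribosomal and transfer RNAs included. At 85% identity, 26 nuclear genes had a matching transcript, and 3 of these were features of the table. None of the 12 higher genes named by rule, *Taco1* and *Lars2* included, was among them. Introns were not compared. *Gm20594*, looked up after the values were seen, matched the mitochondrial ribosomal RNA gene *mt-Rnr2* at 88.4% over 439 bases. It stood at 0.0887 against 0.0186 (2.26, 1.76 to 2.73) and at 0.123 against 0.0455 (1.43, 1.16 to 1.70). These levels lie under the 0.2 that genes had to reach to be counted. The other matching features, *Cep295* and *Frmpd4*, matched over 63 and 26 bases, and their levels are not reported here.

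Fewer nuclear genes separated high cells from the neighbouring lower cells at 10 to 25% than from all lower cells, except among the higher genes of the library labelled Mir34a_Mye_KO. In this comparison, chosen after the data were seen, the log2 ratio of the summed ribosomal protein genes was -0.08 in each library. Then 65 genes were at least 1.5-fold higher and 6 lower in the library labelled Mir34a_F/F, where all lower cells gave 424 and 561. Of the library labelled Mir34a_Mye_KO, 63 genes were lower in place of 228, while 52 were higher in place of 37. *Taco1* was still 1.08 (1.01 to 1.14) and 0.88 (0.84 to 0.93) higher on the log2 scale, and *Lars2* 0.65 (0.61 to 0.68) and 0.49 (0.47 to 0.50). *Cmss1* was at 0.85 and 0.54 and *Gm42418* at 0.51 and 0.51. *Lgr5* was at -0.50 (-0.74 to -0.27) and -1.0 (-1.13 to -0.87) and *Tff3* at -0.41 (-0.48 to -0.34) and -1.07 (-1.12 to -1.03). *Ceacam20* and *Hk2*, higher against all lower cells, were both at -0.03 in the library labelled Mir34a_F/F, and *Hspb1*, lower against all lower cells, was at 0.27 and 0.15. *Mt3* was at 0.02 and -0.33, and *Muc2* at 0.25 and -0.72, so that their lower level in high cells was not shared by both libraries in this comparison.

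Along the 5 bins of the mitochondrial share, *Taco1* stood at 0.545, 1.45, 2.35, 4.19 and 7.57 in the library labelled Mir34a_F/F and at 1.55, 2.08, 2.68, 3.64 and 8.20 in the library labelled Mir34a_Mye_KO. It was higher in each bin than in the one before in both libraries. Per 10000 mitochondrial UMIs the order was the opposite, from 19.2 to 7.56 and from 47.2 to 7.52, so *Taco1* lay between the nuclear and the mitochondrial counts. *Rpl10* stood at 18.2, 11.1, 5.10, 3.71 and 4.78 and at 10.1, 6.16, 3.73, 3.22 and 3.43, with nearly all of the difference below 25%. *Ceacam20* peaked at 25 to 40%, with 3.41 and 4.15, and stood at 1.76 and 2.45 at 40% and more.

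**Figure D5:**
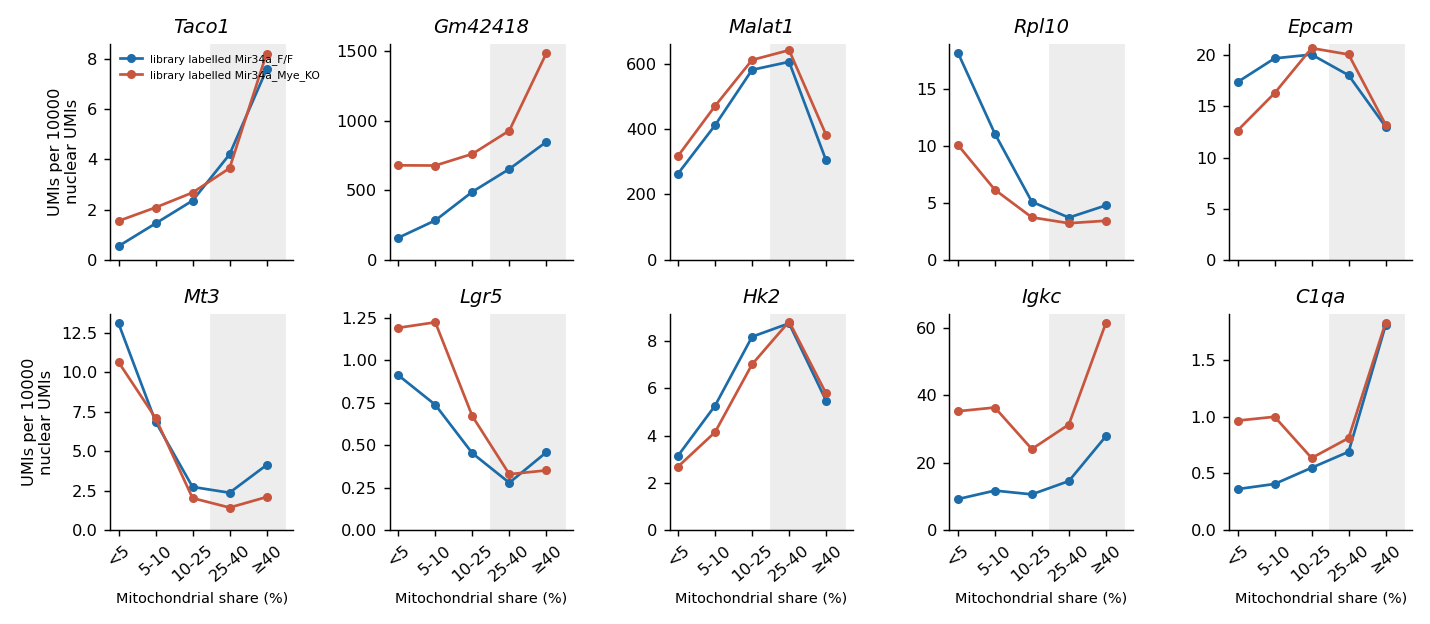
Level per 10000 nuclear UMIs (y axes from 0, 1 scale per gene) of 10 nuclear genes in 5 bins of the mitochondrial share (x axis, percent), 1 line per library, with the high cells shaded. *Taco1* is higher in each bin than in the one before, up to 7.57 and 8.20, *Rpl10*, *Mt3* and *Lgr5* are near their lowest levels at 25 to 40%, *Epcam*, *Malat1* and *Hk2* are lower at 40% and more than at 25 to 40%, and *Igkc* and *C1qa* have their highest levels at 40% and more.

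High cells were not uniform. Cells at 40% and more were compared with those at 25 to 40%, by a rule added after the data were seen, and of 3689 genes 107 were at least 1.5-fold higher in both libraries (2.9%) and 65 lower (1.76%). Several epithelial transcripts were lower in the cells of the highest share: *Epcam* stood at 13.0 against 18.045 and at 13.2 against 20.1, *Clca4a*, of colonocytes, at 0.475 against 1.02 and at 0.551 against 1.03, and *Saa1*, an acute phase protein that colon epithelium secretes, at 11.5 against 20.01 and at 12.4 against 24.7. Secretory transcripts went the other way, with *Muc2* at 3.54 against 2.73 and at 4.09 against 2.34, *Spink4* at 12.4 against 6.05 and at 7.42 against 4.27, and *Defa24* at 6.02 against 2.78 (1.11, 0.98 to 1.25) and at 5.15 against 2.30 (1.17, 1.09 to 1.24). *Malat1* stood at 304 against 606 (-0.99, -1.01 to -0.98) and at 382 against 642 (-0.75, -0.75 to -0.74). Transcripts that mark other cell types were also among the higher genes, and whether they came from such cells was not tested. *Zeb2*, a transcription factor of macrophages and mesenchymal cells, stood at 1.31 against 0.450 (1.54, 1.24 to 1.85) and at 1.43 against 0.524 (1.45, 1.31 to 1.59). *Ptprc*, the pan-leukocyte antigen CD45, stood at 1.14 against 0.486 and at 1.19 against 0.513, the mast cell protease *Mcpt1* at 7.29 against 3.03 and at 6.26 against 2.69, and the complement gene *C1qa* of macrophages at 1.80 against 0.690 and at 1.83 against 0.810.

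Among high cells, markers of other cell types stood higher at 40% and more than at 25 to 40%. Of 11 marker lists of other types, with 52 genes in all and none without a UMI in the high cells, 9 had a higher summed level in high than in lower cells of the library labelled Mir34a_F/F and 8 in the library labelled Mir34a_Mye_KO. These lists included MHC class II genes, which mark no single cell type. At 40% and more, 11 of 11 were above the level at 25 to 40% in each library. Endothelial genes of the library labelled Mir34a_F/F hardly differed, at 0.182 against 0.178. Plasma cell genes summed to 62.7 against 33.1 and to 133 against 66.5 in that comparison, mast cell genes to 13.5 against 5.70 and to 13.1 against 5.56, and macrophage genes to 4.01 against 1.76 and to 3.87 against 1.75. More than 1% of nuclear UMIs on such markers were found in 42.3% (40.3 to 44.3) of high against 13.1% (12.4 to 13.8) of lower cells and in 69.2% (67.7 to 70.7) against 52.7% (51.4 to 53.9). Within the high cells these shares were 21.4% and 44.6% at 25 to 40% and 66.7% and 90.4% at 40% and more, so that in the library labelled Mir34a_Mye_KO the cells at 25 to 40% lay below the lower cells. The sums of that library did not follow the order of the share either: along the 5 bins plasma cell genes stood at 75.3, 75.5, 52.2, 66.5 and 133, and macrophage genes at 2.09, 2.14, 1.44, 1.75 and 3.87. Erythroid genes differed, with a log2 ratio of the sum of -0.74 and -3.97, and 1 bin carried each: the sum was 3.31 at 5 to 10% against 0.627 to 0.989 in the other bins of the library labelled Mir34a_F/F, and 3.605 at 10 to 25% against 0.100 to 0.204 in the library labelled Mir34a_Mye_KO. *Hba-a1* stood at 0.0238 in high and at 0.971 in cells at 10 to 25% of the latter, while in the library labelled Mir34a_F/F *Hba-a1* turned to 0.23 and *Hbb-bs* to 0.49 in cells of 1000 to 5000 nuclear UMIs. The part of free RNA or of attached cells in the levels of high cells was not tested.

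High cells of other types, few as they were, showed part of the same pattern. Among T cells (51 and 71 high cells) *Taco1* had log2 ratios of 2.41 and 2.48 over lower T cells, and among macrophages (30 and 90 high cells) of 2.31 and 2.83. The summed ribosomal protein genes were at -0.55 and -0.35 in T cells and at -0.36 and -0.10 in macrophages. The genes of epithelial identity, which these cells should lack, were higher, with log2 ratios of the sum of 0.80 and 1.06 in T cells and of 1.21 and 1.09 in macrophages. Higher *Taco1* was thus not particular to the epithelium.

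Between the libraries, 26 of 3949 nuclear genes were at least 1.5-fold higher (0.658%) and 101 lower (2.56%) in high cells of the library labelled Mir34a_Mye_KO. Those most above were immunoglobulin and joining chain genes, which belong to plasma cells: *Ighg2c* stood at 0.739 against 0.0887 (3.06, 2.65 to 3.50), *Iglc2* at 1.68 against 0.378 (2.15, 1.95 to 2.36) and *Jchain* at 6.21 against 2.32 (1.42, 1.34 to 1.502). They were also higher in lower cells, by 3.94, 3.01 and 1.63. *Gm15564* and *Ces2f*, a carboxylesterase, followed with 1.41 and 1.22. Among those most below were *Ccdc162* at 0.148 against 0.650 (-2.13, -2.35 to -1.91), *Gm11290* (-1.59), *Ubash3a* (-1.42), *Mfge8* (-1.35) and *Snhg9* (-1.30). Each of these genes differed in the same direction in lower cells. The locus of *Ccdc162* on chromosome 10 contains a processed pseudogene, *Gm47099*, with 87.0% identity to *mt-Nd5*. *Taco1* did not differ between the libraries beyond counting error in high cells (-0.01, -0.07 to 0.05), while it was 0.82 higher in lower cells of the library labelled Mir34a_Mye_KO.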

How the data were processed

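Droplet scRNA-Seq of dissociated CACs was analysed, with 1 library per genotype. Per the study's methods, the authors aligned reads with Cell Ranger 7.2.0 to mm10, removed doublets with Scrublet, normalized with Seurat and annotated cell types, and kept cells under 25% mitochondrial RNA, yet the deposited table holds cells up to 69.9%. The deposited values are the natural log of 1 plus the UMI count per 10000 UMIs of the cell, from which whole UMI counts were recovered. Annotated epithelial cells were split at 25% of UMIs on mt- genes within each library. UMIs were summed over cells, and levels are per 10000 nuclear UMIs. Genes under 0.2 per 10000 over epithelial cells of a library were left out, and a ratio of 1.5-fold was counted. No test between groups was made. Intervals are exact 95% Poisson, binomial or conditional binomial intervals and cover counting error only. PCR and capture were not otherwise modelled, and UMIs mark molecules. Shares of cells with a UMI were set at 500 thinned nuclear UMIs. Members and gene lists were chosen with earlier results of these data known. The text names all mitochondrial mRNAs, up to 4 members per list with the most UMIs or past the fold in both libraries, the 12 nuclear genes in each direction with the largest smaller ratio of the libraries at 0.5 or more per 10000, and 6 in each direction between libraries, and says where genes were looked up later. Some items that these rules name are not reported here. Sequences come from GENCODE vM21 transcripts of mm10 and were compared with blastn 2.17.0 (word size 20). Python 3.11.15, numpy 2.4.6, scipy 1.17.1 and pandas 2.3.3 were used, and the steps were tested on simulated data. Alternatives covered the threshold, the denominator, the averaging, the depth of cells and the choice of lower cells.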

Additional observations from a re-analysis of the deposited data

How the results depend on the processing

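With 1 library per genotype, leaving out a library was not possible, and no paired analysis was possible because each group had a single library. Values are in the order Mir34a_F/F and Mir34a_Mye_KO, and the cause of each move was not tested. Of 91 alternative values of the main results, 20 moved by less than counting error or 1.5 times, 70 moved and 1 that was past 1.5-fold changed sign. The share of high cells was 27.4% and 47.3% at a threshold of 20%, 15.04% and 31.5% at 30%, 16.1% in the first library among cells of at least 1000 nuclear UMIs, and 14.3% and 29.2% without cells over 1% markers of other types, and it was larger in the library labelled Mir34a_Mye_KO each time. Without such cells the log2 ratio of median nuclear UMIs was -1.32 and -0.25 and that of mitochondrial UMIs 1.08 and 1.55. Against lower cells under 10% these ratios were -2.31 and 0.55, that change of sign, and 1.70 and 4.78. The log2 ratio of the *mt-Co1* share was -0.014 and 0.017 as a mean over cells, -0.048 and -0.061 against lower cells under 10% and -0.033 and 0.019 in cells of 1000 to 5000 nuclear UMIs, so that the small value of the second library (-0.025) also changed sign under the first and the last of these.

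The log2 ratio of summed ribosomal protein genes stayed below 0 under each alternative run. It was -0.25 and -0.32 as a mean over cells, -1.11 and -0.84 per 10000 UMIs of any kind, -0.56 and -0.32 at 30%, -0.76 and -0.63 against lower cells under 10%, -0.10 and -0.46 in cells of 1000 to 5000 UMIs, -0.61 and -0.30 without cells rich in other markers, and -0.63 and -0.35 with immunoglobulin, ribosomal protein and *Malat1* UMIs out of the denominator. Chosen after seeing the data, it was -0.54 and -0.29 with *Gm42418*, *Gm26917* and *AY036118* also out, -0.61 and -0.33 for high cells at 25 to 40% and -0.078 in each library against lower cells at 10 to 25%. Counts of genes at least 1.5-fold higher and lower were 100 and 112, then 19 and 91, as a mean over cells, and 949 and 945, then 667 and 815, against lower cells under 10%. Per 10000 UMIs of any kind, where mitochondrial UMIs dilute nuclear ones, they were 32 and 3268, then 0 and 3425, and the median log2 ratio of all genes was -0.55 and -0.57. In cells of 1000 to 5000 UMIs they were 18 and 103, then 117 and 113, and against lower cells at 10 to 25% 65 and 6 in the first library and 63 lower genes in the second. In the second library they were also 114 and 451 without cells rich in other markers, 91 higher for high cells at 25 to 40% and 60 higher with *Gm42418* and its neighbours out. Between the libraries, the counts were 72 higher and 323 lower in cells of 1000 to 5000 UMIs and 42 and 163 without cells rich in other markers, and the log2 ratio of the *mt-Nd2* share was 0.40 as a mean over cells, 0.41 at 1000 to 5000 UMIs and 0.47 without those cells.

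Among single genes past 1.5-fold, those that changed sign did so mainly in the library labelled Mir34a_F/F. There, in cells of 1000 to 5000 UMIs, the log2 ratio was 0.12 for *Agr2*, 0.026 for *Cox6c*, 0.048 for *Cox8a*, -0.39 for *Gm26917*, 0.23 for *Hba-a1*, 0.49 for *Hbb-bs*, -0.28 for *Hist1h4n*, 0.18 for *Hsd17b10*, 0.0061 for *Hspb1*, 0.039 for *Hspe1*, 0.038 for *Prdx1*, 0.11 for *Rps27l* and 0.073 for *Uqcrh*. Against lower cells at 10 to 25% it was 0.023 for *Agr2*, 0.018 for *Mt3*, -0.025 for *Ceacam20*, -0.033 for *Hk2*, -0.045 for *Cyp2d34*, 0.074 for *Defa17*, 0.76 for *Defa21*, 0.48 for *Defa22*, 0.44 for *Defa24*, 0.69 for *Defa30*, 0.59 for *Hba-a1*, 0.052 for *Hbb-bs*, 0.27 for *Hspb1*, 0.13 for *Hspe1*, 0.077 for *Itln1*, 0.12 for *Mt4* and -0.15 for *Rdh16*. As the thinned share of cells it was 0.26 for *Agr2*, 0.52 for *Defa17* and *Tff3*, 0.74 for *Defa21* and *Zg16*, 0.73 for *Defa22* and *Spink4*, 0.80 for *Defa24*, *Defa30* and *Hbb-bs*, 0.60 for *Hba-a1*, 0.015 for *Hspe1*, 0.21 for *Itln1* and 0.079 for *Mt4*. Without cells rich in other markers it was 0.57 for *Hba-a1* and 0.52 for *Hbb-bs*. In the library labelled Mir34a_Mye_KO it was 0.42 for *Hba-a1* at 1000 to 5000 UMIs, 0.069 for *Hbb-bs* without cells rich in other markers, 0.61 for *Defa21*, 0.34 for *Defa22* and 0.15 for *Hspb1* against lower cells at 10 to 25%, and 0.086 for *Defa21*, 0.10 for *Defa22*, 0.12 for *Defa24*, 0.14 for *Muc2* and 0.022 for *Spink4* as the thinned share of cells.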
